A study of Mus musculus with 16 samples.

Results

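Mesangial-like cells were chosen from single-cell libraries of mouse kidney by measured UMI counts, that is, by the number of distinct RNA molecules read per gene and cell barcode. A barcode was selected on at least 4 summed UMIs of Itga8, Ptn, Serpine2, Sfrp2 and Pdgfrb with at least 3 of these 5 genes detected, with Ren1 under 0.5% of its UMIs and with no UMI of Myh11, Pecam1, Ptprc, Cubn or Epcam. Of 116439 barcodes in the files, 53253 had 200 to 7000 detected genes and at most 20% mitochondrial UMIs, and 3758 of these (7.06%) met the rule. Together they held 2.21106e+07 of 1.26708e+09 UMIs.

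Mesangial cells are the contractile pericytes of the glomerulus. They hold the capillary loops together from the inside, deposit the mesangial matrix around themselves, respond to angiotensin II, endothelin and platelet-derived growth factor, and clear trapped material from the filter. In diabetic kidneys they are known for matrix expansion, proliferation and a gain of smooth muscle actin.

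The 16 libraries came from 16 mice on the BTBR background, 2 per group of genotype, sex and age (6 or 12 weeks). Control mice were BTBR +/+, and diabetic nephropathy (DN) mice were BTBR ob/ob, which lack functional leptin and become obese and hyperglycaemic. By the study's methods all of them carried a membrane reporter together with a podocyte-specific Cre transgene, and the alleles were moved onto BTBR by repeated crossing. Both kidneys of a mouse gave 1 library, after removal of the papilla, partial depletion of the proximal tubule on Percoll and digestion with collagenase and a cold-active protease. Values below are CPM, a gene's UMIs scaled to the total UMIs of the mesangial-like cells of that library, and the 4 libraries of an age and genotype are listed throughout as female replicates 1 and 2 and then male replicates 1 and 2.

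The libraries held 10510855 to 125551519 UMIs in 3853 to 10879 barcodes, and the mesangial-like cells of a library summed to 251339 to 4198066 UMIs, with 53 to 544 cells and a median of 1759 to 6763 UMIs per cell. Replicate 1 of each female group shared 23 to 55 barcodes with the other libraries of that kind, the remaining 12 libraries shared 7 to 32 with each other, and a pair with 1 library of each kind shared 0 to 3. The 2 sets, called list B (4 libraries) and list A (12 libraries) here, entered each test as a technical term, since both genotypes occurred in each. A library without a UMI of a gene allows up to 0.715 to 11.9 CPM of it, the level of 3 counts.

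The label was checked against markers that the rule did not use. The list held 18 genes, which summed to 8312 to 12654 CPM in the mesangial-like cells and to 686 to 1524 CPM in all other kept barcodes. Gata3, a transcription factor of the mesangial lineage, averaged 904 CPM against 124 CPM in the other barcodes and 129 CPM in smooth muscle barcodes. The metalloprotease Adamts5 averaged 3557 CPM against 99.9 CPM and 262 CPM, and the angiotensin receptor Agtr1a 754 CPM against 24.9 CPM and 134 CPM. Smooth muscle barcodes here are 1353 barcodes with a Myh11 UMI and at least 3 of Myh11, Acta2, Tagln, Cnn1 and Mustn1 detected, under the same other limits.

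The genes of the rule chose the cells, so their levels are given as a description. Sfrp2, a secreted Wnt modulator, was at 5736, 3223, 6730 and 3618 CPM in control and 3489, 1534, 2142 and 1044 CPM in DN at 6 weeks. At 12 weeks Sfrp2 was at 4743, 4319, 6113 and 4668 CPM in control and 1449, 889, 1135 and 1279 CPM in DN, so that the 12-week groups lay far apart. Ptn, the growth factor pleiotrophin, averaged 5139 ± 302 CPM in control and 3223 ± 63.1 CPM in DN at 12 weeks (SD, n = 4). Serpine2, a protease inhibitor, was the other way round at 3413 ± 1117 CPM and 6088 ± 1689 CPM. Pdgfrb averaged 1303 ± 268 CPM and 910 ± 278 CPM, while Itga8, the integrin subunit that marks the mesangium, averaged 1939 ± 545 CPM and 1895 ± 644 CPM. The part of these levels in the share of barcodes that meet the rule was not tested. The median cell carried 27 to 108 UMIs of the 5 genes per library. Just inside the limit, 20 cells had 4 UMIs, and just outside it 18 barcodes had 3 UMIs of 3 genes and 95 had at least 4 UMIs of only 2 genes.

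Mesangial-like cells took a larger mean share of the kept barcodes in DN. At 6 weeks the share was 9.01%, 4.34%, 5.29% and 0.913% in control and 6.44%, 2.70%, 7.14% and 8.0% in DN, and these groups overlapped. At 12 weeks it was 4.17%, 7.81%, 7.26% and 6.4% in control and 5.68%, 13.7%, 14.2% and 14.7% in DN. Of the 4 DN libraries 3 lay above every control library at that age and 1, replicate 1 of the females, lay inside the control range. Over both ages the mean was 9.07% ± 4.52 in DN and 5.65% ± 2.55 in control (SD, n = 8 each), a difference of 3.42 points (exact two-sided permutation test within sex, age and barcode list, 576 relabellings, p = 0.0382). With replicate numbers as pairs, 6 of 8 pairs were higher in DN (p = 0.0781 by exact sign-flip permutation). Leaving out 1 library gave 2.62 to 4.33 points and p between 0.0139 and 0.118, and 7 of the 16 omissions took p past 0.05: replicate 2 of control females at 6 weeks, replicate 1 of control females at 12 weeks, both control males at 6 weeks, replicate 2 of DN females at 12 weeks and both DN males at 12 weeks. After thinning to 2000 UMIs, which left out 17011 of the 53253 kept barcodes as shallower, the difference was 3.64 points (exact permutation p = 0.0208). Of the barcodes left out, 4101 were in replicate 2 of the control males at 6 weeks, which had 5803 and whose share was 0.913% before and 3.17% after. Over all kept barcodes, under a stricter rule of at least 8 UMIs of at least 4 of the genes it was 3.08 points (exact permutation p = 0.0451). Of the barcodes that met all other criteria, the criterion on Myh11 took 2.79% to 55.5% per library in control and 7.05% to 48.3% in DN at 6 weeks (means 32.1% and 20.9%), and 2.06% to 17.5% and 2.96% to 8.35% at 12 weeks (means 11.2% and 4.81%). These ranges overlapped, and the difference was not tested. Without that criterion the difference was 3.14 points (exact permutation p = 0.0521).

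**Figure D1:**
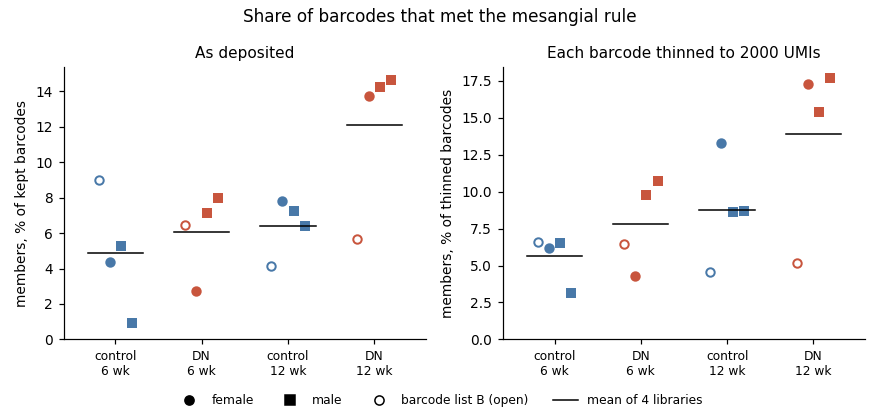
Mesangial-like cells as a percent of kept barcodes, by genotype and age, over all kept barcodes (left) and over the 36242 with at least 2000 UMIs, each thinned to that number (right). Each point is 1 library (circle female, square male, filled list A, open list B) and each line the mean of 4. The DN mean at 12 weeks is 12.1% against 6.41% in control, and at 6 weeks the groups overlap.

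Gene expression was then compared between DN and control within the mesangial-like cells, on UMIs summed per library, in 10064 genes with the 11 genes of the rule left out, and changes are given as log2 values ± SE with DN over control. At 6 weeks 123 genes passed an adjusted p of 0.05 in edgeR's quasi-likelihood test (1.22% of those tested), 93 of them higher (0.924%) and 30 lower in DN (0.298%). At 12 weeks 589 genes passed (5.85%), 454 higher (4.51%) and 135 lower (1.34%). With the replicate number as a block the counts were 352 and 1088, and they held 120 of the 123 and 582 of the 589. The count at 6 weeks rested on single libraries: it was 17 without replicate 1 of the control males, 49 without replicate 2 of the DN males, 64 without replicate 2 of the control males and 70 without replicate 1 of the DN females. At 12 weeks it was 307, 325, 349 and 376 without replicate 2 of the control males, replicate 1 of the control males, replicate 2 of the control females and replicate 1 of the DN males. Without the term for the barcode list 25 and 301 genes passed.

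The 2 ages share no sample. Of the genes called at 6 weeks 101 were also called at 12 weeks (82.1% of the one list and 17.1% of the other), all in the same direction. Of the 589 genes called at 12 weeks, 580 had the same sign at 6 weeks. The median log2 change of the 589, in the direction of their 12-week call, was 0.67 at 6 weeks and 1.04 at 12 weeks. For the 123 called at 6 weeks, in the direction of their 6-week call, it was 1.12 and 1.23. Each set was chosen for its change at 1 of the ages. The libraries of control and DN did not overlap for 68 of the 123 genes and for 351 of the 589, against 3.06% and 7.17% of all genes tested. No gene passed the test of the difference between the ages (0%), with 270 genes at an unadjusted p under 0.05. DESeq2 called 6 genes for it and the fit with the replicate block 5.

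**Figure D2:**
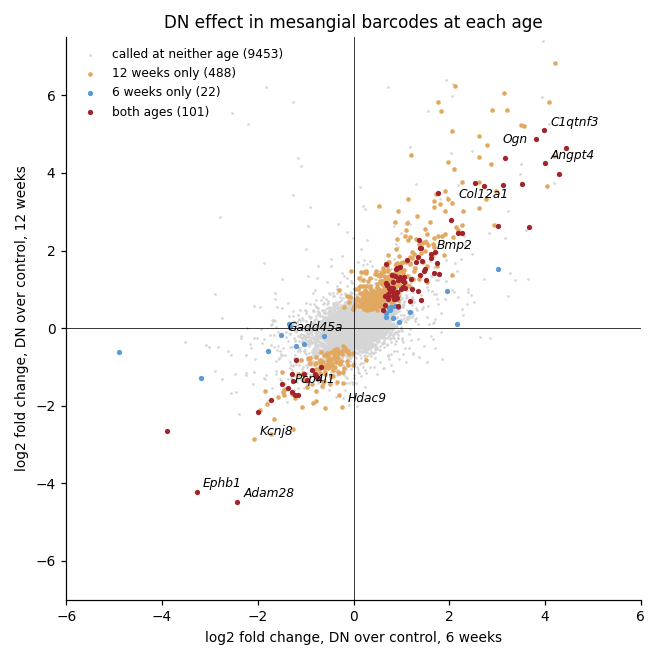
Log2 change of DN against control in mesangial-like cells at 6 weeks (horizontal) and 12 weeks (vertical), 1 point per gene tested, coloured by the age at which it was called. Genes called at both ages (101) lie at the lower left and upper right, and 2 genes fall outside the axes.

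Matrix genes made up one group. Of 22 tested genes of the basement membrane and mesangial matrix, 2 rose at 6 weeks and 10 rose and 2 fell at 12 weeks. Among all genes tested 0.924% rose at 6 weeks, and 4.51% rose and 1.34% fell at 12 weeks. The list had a median log2 change of 0.65 and 0.88 (all genes 0.02 and 0.04). Leaving out 1 library gave 0 to 4 and 3 to 11 higher, and with the Myh11 criterion dropped, so that barcodes with its UMIs came back, 1 and 5 were higher with medians of 0.18 and 0.17 over 26 genes. Col4a1, Col4a2 and Nid1 kept their 12-week calls in that fit (1.23, 1.22 and 0.98). Without the barcode term none was higher at 6 weeks, and 3 were higher and 1 lower at 12 weeks, where Col4a1 (adjusted p = 0.223) and Col4a2 (adjusted p = 0.0767) lost their calls. Col4a1, a chain of collagen IV (chromosome 8, 11198423 to 11312826, minus strand), was at 1005, 3678, 2025 and 2870 CPM in control and 1894, 4917, 2320 and 5022 CPM in DN at 6 weeks, where it was not called (0.65 ± 0.24, adjusted p = 0.276). At 12 weeks Col4a1 was at 923, 1806, 1045 and 1508 CPM in control and 1371, 3179, 2858 and 4141 CPM in DN, 1.18 ± 0.25 higher on the log2 scale (SE, adjusted p = 0.00864). The groups overlapped there only through the DN library at 1371 CPM, and the gene lost its call without replicate 2 of the control males (adjusted p = 0.063). Its partner chain Col4a2 rose by 0.68 ± 0.16 at 6 weeks (adjusted p = 0.0309) and by 1.17 ± 0.16 at 12 weeks (adjusted p = 6.01e-05). Nid1, which links collagen IV to laminin, rose at both ages (0.90 and 0.87 on the log2 scale), and at 12 weeks Nid2 (1.82), the laminin chains Lama2 (1.39), Lamc1 (0.72) and Lamb1 (0.89) and Col18a1 (1.96) rose with it. Fras1 (-1.43) and Npnt (-1.38), matrix proteins of epithelial basement membranes, fell, while Frem2 (1.08), which forms a complex with Fras1, rose.

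Fibronectin, Fn1, stood out by its distribution over cells. It was at 0, 0, 0.58 and 0 CPM in control and 2.54, 16.5, 12.9 and 79.9 CPM in DN at 12 weeks. The lowest DN value is 1 UMI, and a control library without a UMI allows up to 11.9 CPM, so a gap between the groups was not shown at this depth. The control cells held 1 UMI in all and the DN cells 311, a ratio of 145 with a 95% counting interval of 25.8 to 5740. This interval takes each UMI as independent and leaves out the spread between cells and mice. But 179 of the 215 UMIs in replicate 2 of the DN males, and 133 of the 143 UMIs in replicate 2 of the DN females at 6 weeks, came from 1 barcode each. The same barcodes held all 208 and all 124 UMIs of the fibroblast gene Mfap5 in those libraries. After leaving out 142 cells with UMIs of 5 fibroblast or 5 immune genes, Fn1 was still called at 12 weeks (5.39, adjusted p = 0.0001), but over all cells it lost its call in 11 of the 16 omissions of 1 library, for example without replicate 2 of the DN males (5.51, adjusted p = 0.069).

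Among 35 tested genes of fibrillar collagens and their partners, 3 rose at 6 weeks and 9 at 12 weeks, none fell, and the medians were 0.61 and 2.38. Rises made up 0.924% and 4.51% of all genes tested, with medians of 0.02 and 0.04. Col12a1, a collagen that binds to the surface of fibrils, was at 11.9, 65.6, 59.7 and 30.3 CPM in control and 102, 462, 536 and 431 CPM in DN at 12 weeks. The groups were apart, and the change was 3.23 ± 0.44 (adjusted p = 0.00163). Spon2, a secreted matrix protein, was at 3.98, 2.07, 0 and 0 CPM in control and 71.2, 85.1, 37.9 and 66.2 CPM in DN (6.07 ± 1.07, adjusted p = 0.00878); the control cells held few UMIs of it, so the fitted size depends on the prior count. Col6a3 rose at both ages (0.71 and 1.10), as did Loxl2, an enzyme that crosslinks collagen (1.49 and 1.53). Fbln5 (2.38), Col5a1 (1.26), Thbs1 (1.94) and Bgn (0.54) rose at 12 weeks. Leaving out the 142 cells with fibroblast or immune UMIs left 26 of the 35 genes in the test, of which 9 were higher and 1 lower, with a median of 1.08. With the Myh11 criterion dropped none was called at 6 weeks and 10 rose at 12 weeks (median 1.16 over 38 genes), and omission of 1 library gave 1 to 5 and 7 to 14 higher. Fibroblast markers summed to 597 to 1140 CPM in control and 765 to 2055 CPM in DN at 6 weeks, and to 996 to 1056 CPM and 829 to 1241 CPM at 12 weeks. The 13 tested fibroblast markers, none of them called, had medians of 1.04 and 3.12, above those of the fibrillar list, and -0.04 and -0.27 over the 7 that could be tested after that removal. Their part in the fibrillar changes was not tested.

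Proteases and their inhibitors were the list with most calls. Of 32 tested, 5 rose and 1 fell at 6 weeks, and 17 rose and 1 fell at 12 weeks (medians 0.51 and 0.69). For all genes tested the shares were 0.924% higher and 0.298% lower at 6 weeks, and 4.51% and 1.34% at 12 weeks. Leaving out 1 library gave 0 to 5 and 8 to 19 higher, and at 12 weeks 9 were higher without the barcode term, 10 with the Myh11 criterion dropped and 12 in list A. Adamts9, a metalloprotease that cuts proteoglycans, was at 3.98, 8.29, 7.53 and 7.13 CPM in control and 20.3, 43.6, 36.0 and 34.2 CPM in DN at 12 weeks. All DN libraries lay above all controls, 2.38 ± 0.27 higher (adjusted p = 8.74e-06). Mmp2, a gelatinase, rose by 0.70 at 6 weeks and by 1.11 ± 0.15 at 12 weeks (adjusted p = 3.67e-05), and cathepsin K, Ctsk, by 0.94 and 1.28. Mmp3 (2.74), Mmp14 (0.62) and the inhibitor Timp4 rose at 12 weeks, Timp4 from 2 UMIs in the control cells to 98 in DN. Timp3 rose at 6 weeks (0.78). Adam28 was the gene that fell: it was at 15.9, 20.0, 19.1 and 32.1 CPM in control and 0, 0.404, 0.715 and 1.86 CPM in DN at 12 weeks (-4.48 ± 0.50, adjusted p = 5.75e-06).

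**Figure D3:**
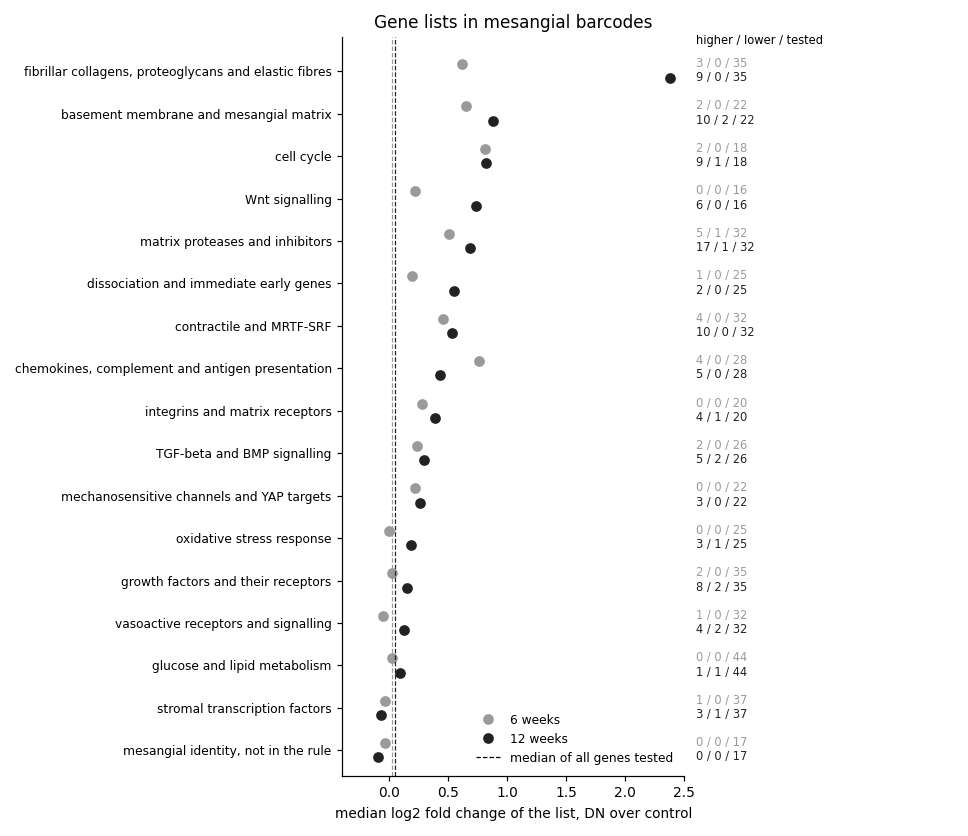
Median log2 change of DN against control for 17 gene lists in mesangial-like cells, at 6 weeks (grey) and 12 weeks (black), with the numbers higher, lower and tested beside each. Dashed lines mark the medians of all 10064 genes (0.02 and 0.04), and most matrix lists lie to the right of them.

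Contractile genes depended on the rule. Acta2, smooth muscle actin, was at 67.6, 76.5, 13.8 and 33.7 CPM in control and 89.3, 386, 255 and 461 CPM in DN at 6 weeks, and at 3.98, 49.7, 23.8 and 107 CPM against 155, 255, 315 and 229 CPM at 12 weeks. The groups were apart at both ages, but the change was not called (2.82 ± 0.68, adjusted p = 0.102, and 2.46 ± 0.62, adjusted p = 0.0512). It was called at both ages by DESeq2 and without the count filter, and at 12 weeks also with stricter members, without cells holding fibroblast or Ren1 UMIs and in 4 of the 16 omissions of 1 library. Tagln, which encodes transgelin, was called at 12 weeks (2.54 ± 0.57, adjusted p = 0.028) and lost its call in 10 alternatives. Of 32 tested genes of the contractile list, 4 rose at 6 weeks (Cnn2, Csrp2, Tpm1 and Filip1l) and 10 at 12 weeks, with medians of 0.46 and 0.53. Across all genes tested 0.924% and 4.51% rose. The list also held the regulators Srf, Mkl1 and Mkl2. With 1 library left out 0 to 7 and 4 to 12 were higher, without the barcode term 0 and 3, and with the replicate block 10 and 19, beside 1 lower at 12 weeks. Tpm1, a tropomyosin, was at 462, 557, 505 and 469 CPM in control and 618, 889, 869 and 924 CPM in DN at 12 weeks, and the groups did not overlap (0.82 ± 0.15, adjusted p = 0.00117). Caldesmon (Cald1, 0.81), Flna (0.90), Actn1 (0.74), Csrp2 (0.89), Myh10 (1.39) and Lmod1 (2.66) rose with it at that age. With barcodes holding Myh11 UMIs let back in, which include vascular smooth muscle, Acta2 changed by -0.03 and -0.44, Tagln by -0.25 and -0.46 and Tpm1 by 0.15 and 0.24, none of them called, and no gene of the list rose at 6 weeks and 2 at 12 weeks. Within the cells of the rule, smooth muscle markers summed to 1625 to 1773 CPM in control and 1645 to 2138 CPM in DN at 6 weeks and to 1416 to 2070 CPM and 1241 to 1945 CPM at 12 weeks, with Myh11 at 0 by the rule and Actg2 at 0 in these cells. Renin cell markers summed to 236 to 747 CPM and 485 to 1304 CPM, and to 270 to 517 CPM and 505 to 857 CPM. Their part in the contractile changes was not tested. Without the Myh11 criterion 13 genes were called at 6 weeks and 325 at 12 weeks in all, 13 and 305 of them shared with the first fit.

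Many contractile genes are read by serum response factor, Srf, through the CArG box, and 2 promoters that hold it are shown, that of a contractile gene called at 6 weeks and that of Srf. The CArG box (its pattern is the same on both strands) was found within 250 bases upstream of the start of 378 of 27025 genes (1.40%, RefSeq, GRCm38.p6), of 93 of 7918 tested genes that had an entry (1.18%) and of 5 of 29 genes of the contractile list with an entry (17.2%). Srf is 1 of these 5, and the list was drawn up around contractile genes and the Srf pathway. Its share is therefore a description and no test of enrichment. None of the 8 contractile genes that rose at 12 weeks and had an entry held one in this window, Acta2 held none, which says only that these letters are not in this window, and of the genes that rose at either age only Cnn2, calponin 2, did. Its promoter (chr10:79988350-79988599, plus strand) and that of Srf itself (chr17:46556163-46556412, minus strand) follow, with CArG boxes in capitals, at -56 in Cnn2 and at -82 and -62 in Srf, counted from the start site.
Cnn2: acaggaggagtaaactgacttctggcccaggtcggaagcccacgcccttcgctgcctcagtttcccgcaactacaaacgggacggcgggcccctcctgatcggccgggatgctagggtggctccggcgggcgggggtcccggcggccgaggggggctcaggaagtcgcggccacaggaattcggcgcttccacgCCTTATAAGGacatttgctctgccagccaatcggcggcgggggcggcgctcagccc
Srf: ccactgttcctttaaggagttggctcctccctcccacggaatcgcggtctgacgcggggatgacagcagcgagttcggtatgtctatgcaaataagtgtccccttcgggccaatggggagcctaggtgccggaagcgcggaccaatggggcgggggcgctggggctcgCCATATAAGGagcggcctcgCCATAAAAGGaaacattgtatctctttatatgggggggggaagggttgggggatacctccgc
Cnn2 was at 360, 190, 159 and 180 CPM in control and 459, 319, 266 and 287 CPM in DN at 6 weeks (0.68 ± 0.17, adjusted p = 0.0395), where 1 control library lay among those of DN, and was not called at 12 weeks (0.40, adjusted p = 0.178). The 6-week call of Cnn2 was lost without the barcode term and with the Myh11 criterion dropped. Srf changed by 0.31 and -0.01, and its cofactors Mkl1 by 0.43 and 0.33 and Mkl2 by -0.01 and 0.61, with none called.

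C1qtnf3, a secreted protein related to complement C1q and to adiponectin (chromosome 15, 10952332 to 10980150, plus strand), had the lowest adjusted p at both ages. At 6 weeks it was at 6.15, 4.44, 4.24 and 0 CPM in control and 19.1, 66.8, 59.5 and 77.7 CPM in DN. At 12 weeks it was at 3.98, 4.14, 0.58 and 1.78 CPM in control and 50.9, 96.8, 65.3 and 60.2 CPM in DN. The lowest DN library lay above the highest control at both ages, and the changes were 3.98 ± 0.38 (adjusted p = 1.84e-06) and 5.10 ± 0.35 (adjusted p = 1.75e-09). Within list A alone the fitted changes were 4.31 and 5.18. Between the single libraries of list B, plain log2 ratios of CPM with a small constant added were 1.49 and 3.38. After thinning each cell to 1500 UMIs, which left out 534 of the 3758 cells, a C1qtnf3 UMI was found in 4.54% to 9.44% of cells per DN library and in 0% to 1.41% per control library. The same share in tubule barcodes, which should lack the gene, was 0% to 0.94% in DN and 0% to 1.5% in control, at median depths of 2034 to 14720 UMIs against 1759 to 6763. A library with no such cell allows up to 0.602% to 6.25%, and shares cover counting error only.

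Ogn, osteoglycin, a small proteoglycan of the matrix (chromosome 13, 49608046 to 49624501, plus strand), was at 6.15, 5.54, 7.43 and 12.0 CPM in control and 57.4, 187, 38.6 and 113 CPM in DN at 6 weeks. At 12 weeks it was at 7.96, 4.14, 2.32 and 1.78 CPM in control and 43.2, 139, 53.1 and 90.7 CPM in DN. Again no DN library reached down to a control, and Ogn rose by 3.81 ± 0.50 (adjusted p = 0.00287) and 4.89 ± 0.51 (adjusted p = 8.11e-05). Within list A the fitted changes were 3.89 and 5.09, and the plain log2 ratios of CPM between the libraries of list B were 3.03 and 2.30. A UMI of it was found in 4.58% to 18.5% of thinned cells per DN library, in 0% to 2.08% per control library and in 0% to 0.37% of tubule barcodes. Its level was high in smooth muscle barcodes, at 108 to 304 CPM in control and 45.4 to 203 CPM in DN. With the Myh11 criterion dropped Ogn changed by -0.01 at 6 weeks and by 0.71 at 12 weeks (adjusted p = 0.69), whereas C1qtnf3 still rose, by 2.18 (adjusted p = 0.0024) and 3.53. The same cells tended to hold both: in 7 of the 8 DN libraries Ogn was found in a larger share of the cells with a C1qtnf3 UMI than of those without, such as 58.3% against 27.1% in replicate 2 of the females at 12 weeks and 35.7% against 18.2% in replicate 1 of the males. The exception was replicate 1 of the females at 12 weeks (6.25% against 9.46%). Cells with more UMIs are more likely to show any gene, and this was not corrected for.

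Angpt4, a ligand of the endothelial receptor Tie2, was at 0, 2.22, 1.06 and 0 CPM in control and 31.9, 11.1, 7.61 and 30.0 CPM in DN at 6 weeks, 3 UMIs against 100 (ratio 16.5, 95% counting interval 5.49 to 81.4). At 12 weeks Angpt4 was at 3.98, 3.45, 1.74 and 0 CPM in control and 35.6, 45.2, 34.1 and 34.2 CPM in DN, and rose by 4.25 ± 0.53 (adjusted p = 9.51e-05). DN and control were apart at 12 weeks. The 6-week counting interval leaves out the spread between cells and mice. At 6 weeks a control library without a UMI allows up to 9.22 CPM, above the lowest DN library, and with the Myh11 criterion dropped the 6-week change was 0.56 (adjusted p = 0.81). Elmod1, a GTPase-activating protein for Arl2, rose by 2.72 and 3.68, and Mmd by 2.26 and 2.45.

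**Figure D4:**
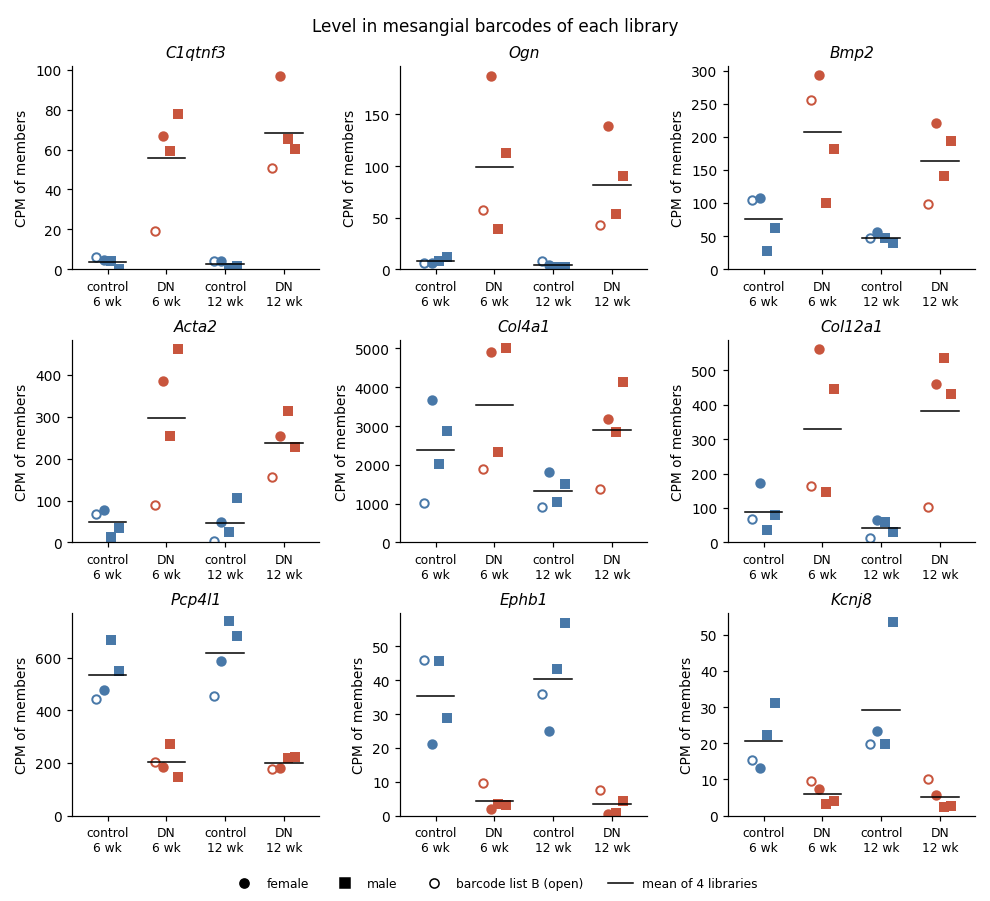
CPM of 9 genes in mesangial-like cells by genotype and age, 1 point per library (open list B) with the mean of 4 as a line, on a separate axis for each gene. DN libraries lie above all controls at both ages for C1qtnf3, Ogn and Acta2 and below them for Pcp4l1, Ephb1 and Kcnj8.

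Secreted signals and their receptors changed in part. Bmp2, a bone morphogenetic protein, was at 47.7, 56.6, 46.4 and 40.1 CPM in control and 99.2, 221, 141 and 193 CPM in DN at 12 weeks, and rose by 1.61 ± 0.24 at 6 weeks (adjusted p = 0.00174) and 1.91 ± 0.23 at 12 weeks (adjusted p = 4.47e-05). Fstl1, a secreted binding protein of this family, rose by 1.07 and 1.03 with no overlap of the groups at either age. Of 26 tested genes of TGF-beta and BMP signalling 2 rose at 6 weeks, and 5 rose and 2 fell at 12 weeks (medians 0.23 and 0.29 beside 0.02 and 0.04 for all genes). Fstl3 (2.72) and the inhibitory Smad7 (0.63) were among those that rose, and Ltbp4 (-1.93) and Bambi (-0.62), a decoy receptor, fell. At 12 weeks omission of 1 library gave 2 to 5 higher and 1 to 3 lower, and the fit with the Myh11 criterion dropped 2 and 1. Tgfb1 changed by 0.33 and 0.39 and was not called. Of 16 tested Wnt genes none was called at 6 weeks and 6 rose at 12 weeks: the antagonists Dkk2 (1.68) and Frzb (1.47), the receptors Fzd1 (1.13), Fzd2 and Fzd4, and the coreceptor Ror1 (0.74). Dkk2 was at 525, 536, 263 and 464 CPM in control and 1615, 1144, 1116 and 1301 CPM in DN at 12 weeks, with a wide gap between the groups. Leaving out 1 library gave 1 to 6 Wnt genes, omission of the barcode term 2 and dropping the Myh11 criterion 3. For both lists the shares over all genes tested were 0.924% higher at 6 weeks, and 4.51% higher and 1.34% lower at 12 weeks.

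Of 35 tested growth factors and receptors 2 rose at 6 weeks, and 8 rose and 2 fell at 12 weeks (medians 0.02 and 0.15, all genes 0.02 and 0.04). Over the whole test 0.924% of genes rose at 6 weeks, and 4.51% rose and 1.34% fell at 12 weeks. Vegfc, a ligand of lymphatic and capillary endothelium, rose by 1.05 (adjusted p = 0.0072) and 1.19 (adjusted p = 9.49e-05). Angpt2 (0.92) and Pdgfa (0.62) rose at 12 weeks while Pdgfc (-1.71) and the coreceptor Nrp1 (-0.62) fell. The 12-week count of rises was 3 to 9 with 1 library left out, 5 without the barcode term or in list A, and 4 with the Myh11 criterion dropped. Of 28 tested genes of chemokines, complement and antigen presentation, 4 rose at 6 weeks and 5 at 12 weeks (medians 0.76 and 0.43), namely the first-component proteases C1ra and C1s1, their inhibitor Serping1, the chemokine Cx3cl1 and, at 12 weeks, Cxcl16. C1ra rose by 0.79 and 0.97, and Cx3cl1 by 0.81 and 1.02, and both kept their 12-week calls in every alternative. C1s1 kept its 12-week call in 3 of the 16 omissions of 1 library. At 6 weeks C1ra kept its call in 2, C1s1 in 4 and Cx3cl1 in 6 of them, and 1 gene of the list was called without the 142 cells with fibroblast or immune UMIs. The list had no call at 6 weeks and 2 at 12 weeks without the barcode term, and the same counts with the Myh11 criterion dropped.

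Genes of vasoactive responses went both ways. Of 32 tested, 1 rose at 6 weeks, and 4 rose and 2 fell at 12 weeks (medians -0.05 and 0.12). The shares of all genes tested were 0.924% higher at 6 weeks, and 4.51% higher and 1.34% lower at 12 weeks. With 1 library left out 0 to 1 and 2 to 5 were higher, and in list A 1 was higher at 12 weeks. P2rx1, a channel opened by ATP, was at 75.6, 157, 133 and 83.8 CPM in control and 315, 284, 514 and 451 CPM in DN at 12 weeks (1.86, adjusted p = 0.00602). The natriuretic peptide receptors Npr1 (0.91) and Npr3 (1.14) and the potassium channel subunit Kcnmb1 (1.23) rose, and Ednrb, an endothelin receptor, was called at 6 weeks (3.01, adjusted p = 0.0292) and not at 12 weeks (1.54, adjusted p = 0.182). Kcnj8, the pore of the vascular ATP-sensitive potassium channel, was at 19.9, 23.5, 19.7 and 53.5 CPM in control and 10.2, 5.65, 2.38 and 2.6 CPM in DN at 12 weeks and fell by 2.86 ± 0.42 on the log2 scale (adjusted p = 0.000208). The prostaglandin E receptor Ptger2 fell as well (-2.05). With the Myh11 criterion dropped the sign turned for Ednrb at 6 weeks and for Kcnmb1 at 12 weeks.

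Other genes that fell follow. Pcp4l1 lies on chromosome 1 (171173262 to 171196268, minus strand). It was at 443, 476, 666 and 551 CPM in control and 204, 184, 273 and 147 CPM in DN at 6 weeks. At 12 weeks it was at 454, 588, 740 and 684 CPM in control and 178, 181, 217 and 223 CPM in DN. The groups did not overlap, and the changes were -1.36 ± 0.17 (adjusted p = 0.00017) and -1.53 ± 0.17 (adjusted p = 4.92e-06). Plain log2 ratios of CPM between the libraries of list B were -1.11 and -1.34. A UMI of it was found in 43.3% to 59.6% of thinned control cells and in 15.5% to 30.6% of thinned DN cells per library, and in 0.12% to 1.14% of tubule barcodes. Ephb1, a receptor for ephrin-B, was at 35.8, 24.9, 43.5 and 57.1 CPM in control and 7.63, 0.404, 0.715 and 4.46 CPM in DN at 12 weeks, and fell by 3.28 ± 0.44 at 6 weeks (adjusted p = 0.000388) and 4.22 ± 0.39 at 12 weeks (adjusted p = 8.1e-07). Espn, an actin-bundling protein, fell by 1.73 and 1.85 and the transcription factor Tox2 by 1.99 and 2.16. Without replicate 1 of the control males at 6 weeks Espn (adjusted p = 0.056) and Tox2 lost their 6-week calls. At 12 weeks the vitamin D receptor Vdr (-2.03), the histone deacetylase Hdac9 (-2.03) and the matrix protein Sned1 (-2.10) fell. At 6 weeks Gadd45a (-1.52) and Fam213b (-1.35) fell, and Gadd45a changed by -0.19 at 12 weeks (adjusted p = 0.79).

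Cell cycle genes were found in few cells. Of 18 tested, 2 rose at 6 weeks (Ccna2 and Ccnb2), and 9 rose and 1, Ccnd2, fell at 12 weeks. The all-gene shares were 0.924% higher at 6 weeks, and 4.51% higher and 1.34% lower at 12 weeks. The control cells held 3 UMIs of Ccna2 and 1 of Ccnb2 at 6 weeks. At 12 weeks they held 0 of Ccnb1, 1 each of Ccnb2 and Ube2c, 2 of Birc5 and 3 of Ccna2. The calls of these genes rest on UMIs of the DN libraries. Omission of 1 library gave 0 to 6 and 1 to 9 higher, and with the Myh11 criterion dropped none and 2 were higher. Top2a, a topoisomerase of dividing cells, was at 0, 0, 0.58 and 0.892 CPM in control and 0, 42.8, 21.4 and 21.2 CPM in DN at 12 weeks, 2 UMIs against 253, and the groups met at 0. Cells with at least 3 of 8 mitotic genes detected, a measure chosen after the data were seen, made up 1.31% ± 1.21 in DN and 0.235% ± 0.477 in control (SD, n = 8 each), a difference of 1.08 points (exact permutation p = 0.00694). These 8 genes are all among the 9 called higher in DN at 12 weeks in the same libraries. Permutation tests of this share are therefore no separate support for a rise. The DN mean was 1.97% at 6 weeks and 0.65% at 12 weeks, and the control mean 0.47% and 0%. Thinned to 1500 UMIs the difference was 0.877 points (exact permutation p = 0.0486). The same share in tubule barcodes was 0% to 1.12% in DN and 0% to 0.74% in control. Top2a and Mki67 lost their 12-week calls in 15 and 12 alternatives, and after removal of the 142 cells with fibroblast or immune UMIs 2 genes of the list rose and 1 fell.

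Of 44 tested genes of glucose and lipid metabolism none was called at 6 weeks and 2 at 12 weeks, Lpl higher (0.89) and Ucp2 lower (-1.14), a share near the 1.22% and 5.85% of all genes. Of 20 tested integrins and matrix receptors none was called at 6 weeks, and 4 rose and 1 fell at 12 weeks, among them Itgav (0.93), which binds vitronectin and fibronectin, and Itga9 (1.22). Of these integrins and receptors 2 to 5 rose with 1 library left out, 2 in list A and none without the barcode term. Of 22 mechanosensitive channels and YAP targets 3 rose at 12 weeks, Cyr61 (2.21), Amotl2 (0.84) and Crim1 (0.76). Omission of 1 library gave 0 to 4, and Crim1 kept its call in 3 of the 16 omissions. None was called with the Myh11 criterion dropped and 1 in list A. The glucose transporter Slc2a1 changed by 0.18 and -0.19. Of 25 tested oxidative stress genes 3 rose at 12 weeks, Hmox1 (1.09), Gpx1 (0.73) and Gpx4, and 1 fell. None was called in list A or without the barcode term, and 0 to 3 rose with 1 library left out. Of 37 stromal transcription factors 1 rose at 6 weeks, and 3 rose and 1 fell at 12 weeks. Over all genes tested 0.924% rose at 6 weeks, and 4.51% rose and 1.34% fell at 12 weeks. Klf6, which is also an immediate early gene, rose at both ages (0.70 and 1.10) and Tbx2 at 12 weeks (0.74), and Foxc1 fell (-0.58). At 12 weeks 1 factor rose and none fell without the barcode term, and 5 rose and 6 fell with the replicate block. Of 25 tested dissociation and immediate early genes 1 rose at 6 weeks and 2 (Cebpb and Klf6) at 12 weeks. Their medians were 0.19 and 0.55, and 20 of 25 were positive at each age, beside 53.3% and 56.2% of all genes. Their summed level was 2829 to 6747 CPM in control and 3887 to 5357 CPM in DN at 6 weeks, and 2812 to 3847 CPM and 3366 to 5548 CPM at 12 weeks, and its part in the other changes was not tested. With the Myh11 criterion dropped the 12-week median of this list was -0.07.

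The 17 tested identity genes outside the rule gave no call at either age, with medians of -0.04 and -0.10. With the replicate block 1 rose at 6 weeks, and 2 rose and 3 fell at 12 weeks. In the contrasts given further below, 2 genes of this list had a lower DN effect than in all other kept barcodes. Another 3 calls were lower than in smooth muscle barcodes, and none was higher in either contrast (3.57% and 2.9% of all genes differed). Gata3 was at 1038, 1026, 849 and 1004 CPM in control and 971, 861, 598 and 631 CPM in DN at 12 weeks, and the groups overlapped (-0.30, adjusted p = 0.411). Adamts5 changed by 0.05 and -0.10, Agtr1a by 0.02 and 0.20, Pdgfra by 0.04 and -0.21 and Ctgf by 0.13 and 0.47, with none called. The leptin receptor Lepr was at 0 to 2.21 CPM and was too low to test. Markers of other cells differed between groups in some libraries. Proximal tubule markers summed to 595 to 5280 CPM in control and 751 to 1050 CPM in DN at 6 weeks, and to 909 to 3057 CPM and 649 to 1356 CPM at 12 weeks. Their part in the falls of tubule genes at 6 weeks, such as Keg1 (-3.18) and Acy3 (-1.79), was not tested. Immune markers reached 1989 CPM in replicate 1 of the control females at 6 weeks, and at most 19.9 CPM in control at 12 weeks and in DN. Among marker lists of other cells, none of 13 fibroblast, 10 endothelial, 10 proximal tubule, 11 distal tubule and collecting duct and 4 renin cell genes was called at either age, while of 6 smooth muscle markers 2 rose (Lmod1 and Tagln) and 1, Mustn1, fell at 12 weeks, and of 7 podocyte genes 2 rose. With the Myh11 criterion dropped no smooth muscle marker was called. With the replicate block, fibroblast and endothelial markers had 3 higher and 1 lower each at 12 weeks, proximal tubule markers 1 lower and distal tubule and collecting duct markers 3 lower. In summed RNA, fewer cells of a kind and less RNA per cell cannot be told apart.

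Sex and age were compared too. No gene passed the test of a different DN effect in males and females (0%), with 336 at an unadjusted p under 0.05. DESeq2 called 0 genes there and the fit with the replicate block 5. No gene passed between 12 and 6 weeks in control (0%, 404 unadjusted, 6 by DESeq2) or in DN (0%, 401 unadjusted, 0 by DESeq2). In control, 14 genes differed between males and females (0.139%), 7 in each direction. List B held only females, so sex can be told apart from the list only where list A holds both sexes. The 7 genes named here are those left after predicted, sex-linked and the other excluded names were taken out. Higher in males were Inmt (adjusted p = 0.000765), Acy3 (1.60 on the log2 scale) and Ugt2b38 (5.05), which kidney tubule also uses. Inmt had no UMI in the 4 female control libraries and was at 18.0, 43.3, 8.11 and 26.7 CPM in the 4 male ones. Kap, an androgen-driven gene of proximal tubule, was at 0, 72.1, 83.6 and 91.2 CPM in female and 2097, 2288, 751 and 1963 CPM in male control libraries, and its part in these calls was not tested. Lower in males were Slc43a3 (-1.84 ± 0.24, adjusted p = 0.000288), Man2a1 (-1.22), Plxna2 (-1.16) and Scarb2 (-0.85).

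The DN effect in mesangial-like cells was finally set against that in all other kept barcodes of the same libraries. It differed in 510 of 14299 genes (3.57%), 349 with a higher and 161 with a lower change in mesangial-like cells, and in 1004 with the replicate block. Ogn (4.27 ± 0.30, adjusted p = 2.29e-07) and C1qtnf3 (4.46 ± 0.38, adjusted p = 6.14e-06) differed most clearly on the higher side, followed by the semaphorin Sema3e (3.08) and the tetraspanin Tspan2 (1.71). In the other barcodes Ogn stayed between 2.16 and 16.6 CPM and C1qtnf3 between 0.72 and 10.8 CPM. On the lower side were Espn (-2.14 ± 0.20, adjusted p = 7.29e-06) and Pcp4l1 (-1.23 ± 0.12, adjusted p = 1.19e-05). The count was 328 without replicate 1 of the control males and 329 without replicate 2 of the DN males at 6 weeks.

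Against smooth muscle barcodes, the nearest other mural cell, the DN effect differed in 284 of 9798 genes (2.9%), 166 higher and 118 lower, and DESeq2 called 146. Ogn (5.32 ± 0.22, adjusted p = 1.18e-29), the protease inhibitor Pi15 (2.83), C1qtnf3 (4.22 ± 0.38), Akap12 (1.77) and Cenpa (2.81) had the higher change in mesangial-like cells, and Pcp4l1 (-1.01 ± 0.10), Ehd4 (-1.24), Zfand5 (-1.17), the parathyroid hormone receptor Pth1r (-1.29) and Rab6b (-0.97) the lower one. C1qtnf3 was at 0 to 27.7 CPM in control and 5.73 to 49.1 CPM in DN smooth muscle barcodes. Myh11, a gene of the rule, splits the barcodes of this contrast. Mesangial-like cells hold none of its UMIs by the rule, and smooth muscle barcodes hold at least 1. With that criterion dropped Ogn was not called in mesangial-like cells at either age, and this contrast was not rerun that way. Of the 611 genes called between DN and control at either age, 250 also differed from the other barcodes and 140 from the smooth muscle barcodes.

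**Figure D5:**
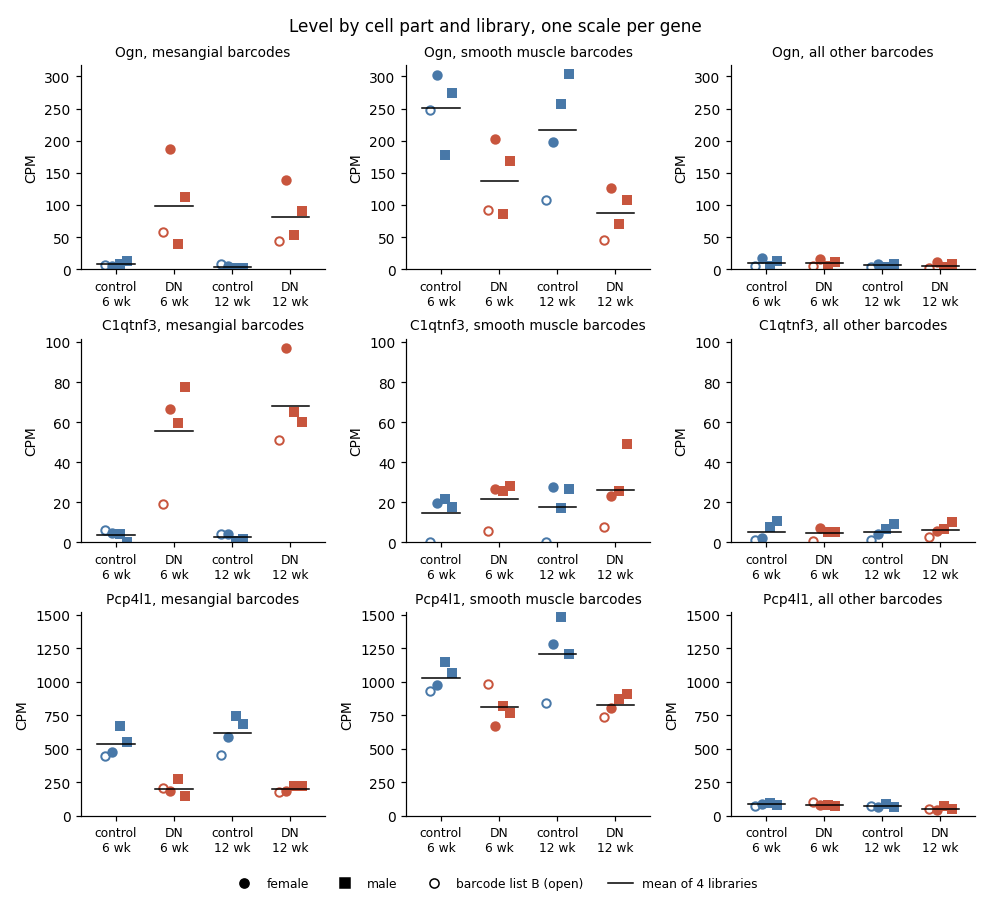
CPM of Ogn, C1qtnf3 and Pcp4l1 in mesangial-like cells, smooth muscle barcodes and all other kept barcodes, by genotype and age, 1 point per library (circle female, square male, open list B, line mean of 4). Ogn is at 45.4 to 304 CPM in smooth muscle barcodes of both genotypes, and in mesangial-like cells it is at 12.0 CPM or less in control and at 38.6 CPM or more in DN.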

How the data were processed

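Single-cell RNA was counted in 16 kidney libraries of 16 mice. The authors deposited raw UMI counts per gene and barcode for 31053 genes, made, per the submitters' processing notes, with Cell Ranger 3.0.2 on mm10, and the matrices include barcodes that a later filter removes. No doublet caller was run here: the criteria of 0 UMIs for Myh11, Pecam1, Ptprc, Cubn and Epcam leave out barcodes with a UMI of these genes, not every mixed barcode (128 cells held immune UMIs). UMIs of the mesangial-like cells were summed per library (at least 10 cells each) with Python 3.11.15, numpy 2.4.6 and pandas 2.3.3.

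Sums were tested with edgeR 4.0.16 (R 4.3.3, limma 3.58.1): TMM factors, filterByExpr with a minimum count of 10, robust quasi-likelihood fit, Benjamini-Hochberg adjustment over all genes tested, called under 0.05. Terms were sex within age, genotype within age and the barcode list. Contrasts of sex and age used 8 group means and the barcode list, and those against other barcodes a library block and the barcode list within the mesangial-like cells' sums. The study's single-cell tests compared cells by MAST, and its tests of sorted glomerular cells used DESeq2 on bulk samples. Cells were not taken as replicates here, and shares were tested by exact permutation (scipy 1.17.1). Figures were drawn with matplotlib 3.10.9. DESeq2 1.42.0, no count filter, no barcode term, the replicate block, list A alone, stricter members (at least 8 UMIs of at least 4 genes), a mitochondrial limit of 10% and omission of each library were alternatives. Removal of cells with fibroblast or immune UMIs and dropping the Myh11 criterion were added after the data were seen. The edgeR test of DN against control at the later age was checked on simulated counts. No such check is reported for the other contrasts and the alternatives.

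Replicate numbers come from the labels. Deviations of same-numbered control and DN libraries from their group means were correlated over 10064 genes. The values were 0.539 and 0.538 in females and 0.294 and 0.468 in males, at 6 and 12 weeks. In females the replicate number follows the barcode list, so the female values cannot tell a pairing of mice from an effect of the list. No reference value for unpaired libraries was computed. The numbers were used as pairs in the block, but a pairing of mice was not shown. Replicates differed by more than sampling noise (chi-square per degree of freedom 4.00 to 13.5).

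The members of the group and the gene lists were chosen with earlier results of these data known. Genes named are the 8 largest rises and falls among called genes with at least 20 CPM in the higher group at each age (without predicted, sex-linked, mitochondrial, ribosomal and haemoglobin genes), called members of the lists, a short set given regardless of call (among them Acta2, Col4a1, Gata3 and Srf), and the 5 with the lowest p per direction in other contrasts. Symbols are those of the files. Coordinates are from GENCODE M21, where 31011 of the 31053 identifiers were found, and promoters from RefSeq. Some genes are not reported here.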

Additional observations from a re-analysis of the deposited data

Results flagged for a closer look

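Within groups of 4 libraries, 14 of 220 groups tested (6.36%) held a library whose gap to its neighbour, as a part of the group's range, was over Dixon's critical value, where chance gives about 1 in 20. The share of mesangial-like cells in DN at 12 weeks was one (0.899): replicate 1 of the females was at 5.68%. The same library stood high for Tgfb1 (0.955, 216 CPM). In DN at 6 weeks Fn1 stood apart in replicate 2 of the females (0.954, 265 CPM), and Ctsk (0.893, 76.5 CPM) and Gata3 (0.899, 1358 CPM) in replicate 1 of the females. In DN at 12 weeks Angpt4 was flagged at 0.862. In control at 6 weeks P2rx1 (0.951, 295 CPM) stood apart in replicate 2 of the females and Top2a (0.908, 46.1 CPM), Mki67 (0.862, 15.4 CPM) and Adamts5 (0.888, 2219 CPM) in replicate 1 of the females, and Adamts9 was at 0.833. In control at 12 weeks Kcnj8 (0.888, 53.5 CPM) stood apart in replicate 2 of the males, Adamts5 (0.858, 3131 CPM) in replicate 1 of the females, and Fn1 (1) in the single library with a UMI.

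The DN effect in mesangial-like cells differed from that in all other kept barcodes in 510 genes by the test of the difference itself. On the log2 scale the clearest differences were 4.27 for Ogn, 4.46 for C1qtnf3, 3.08 for Sema3e, 1.71 for Tspan2 and 0.87 for S100a10 on the higher side, and -2.14 for Espn, -1.23 for Pcp4l1, -0.94 for Serpini1, -1.44 for Bend7 and -1.13 for Abat on the lower side. Against smooth muscle barcodes, which hold Myh11 UMIs by definition where mesangial-like cells hold none, 284 genes differed. The higher changes were 5.32 for Ogn, 2.83 for Pi15, 4.22 for C1qtnf3, 1.77 for Akap12 and 2.81 for Cenpa. The lower ones were -1.01 for Pcp4l1, -1.24 for Ehd4, -1.17 for Zfand5, -1.29 for Pth1r and -0.97 for Rab6b.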

How the results depend on the processing

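Counts of called genes moved with the settings as follows. Without a count filter 501 genes were called at 6 weeks, 947 at 12 weeks, 76 for the difference between ages, 18 for that between sexes, 132 between control males and females, 28 and 19 between ages in control and DN, and 1104 against the other barcodes. The replicate block gave 352, 1088, 5 (ages), 5 (sexes) and 1004 (other barcodes), and a paired share p of 0.0781. Without the barcode term the counts were 25, 301 and 9 (control sexes). DESeq2 gave 6 for the ages, 36 for control sexes, 6 between ages in control and 146 against smooth muscle barcodes. Without the 1613 cells that held fibroblast or Ren1 UMIs the counts were 51 and 334, and with the Myh11 criterion dropped 13 and 325. The share difference lost its call when genotype was permuted within sex and age only (3.42, p = 0.0633 by exact permutation), and without the Myh11 criterion (3.14).

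Leaving out 1 library gave 17 to 162 calls at 6 weeks, 307 to 648 at 12 weeks, 0 to 1 for the difference of ages and of sexes, 4 to 32 for control sexes, 0 to 5 and 0 to 8 between ages in control and DN, 328 to 580 against the other barcodes, 214 to 318 against smooth muscle barcodes, and a share difference of 2.62 to 4.33 points. The difference in cells with mitotic genes was 0.701 to 1.26 points.

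With the Myh11 criterion dropped the sign turned at 6 weeks for Ogn (-0.0101), Acta2 (-0.0276), Tagln (-0.25), Filip1l (-0.00375), Cenpa (-0.51), Ednrb (-0.16) and Srf (-0.0613), and at 12 weeks for Acta2 (-0.44), Tagln (-0.46), Lmod1 (-0.63), Filip1l (-0.29), Kcnmb1 (-0.11) and Adamts5 (0.0228). Among genes that were not called, the 6-week sign also turned for Adamts5 (-0.00452 without fibroblast or Ren1 cells, -0.0325 without fibroblast or immune cells), Agtr1a (-0.00929 with DESeq2, -0.16 and -0.0447 without those cells), Pdgfra (-0.00815 with the block, -0.13 in list A, -0.0389 without fibroblast or immune cells) and Mkl2 (0.0015 in list A, 0.0901 with stricter members, 0.14 at the mitochondrial limit of 10%, 0.23 without fibroblast or Ren1 cells), and at 12 weeks for Srf (0.0817 in list A). Leaving out 1 library also turned signs at 6 weeks for Adamts5 (-0.0120 to 0.117), Agtr1a (-0.101 to 0.0922), Pdgfra (-0.139 to 0.246), Ctgf (-0.0277 to 0.257), Slc2a1 (-0.165 to 0.646) and Mkl2 (-0.167 to 0.123), and at 12 weeks for Pdgfra (-0.433 to 0.0352) and Srf (-0.203 to 0.174). Causes were not tested. Of the called named genes, 32 of 121 at 12 weeks and 5 of 40 at 6 weeks had no counted loss of their call. A turned sign (4 called genes at each age) and an alternative without a test of the gene were not counted as losses. The 10 against the other barcodes and the 10 against smooth muscle barcodes kept theirs in the 4 settings and 16 omissions run for them. These did not include dropping the Myh11 criterion.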
